A study of Homo sapiens with 24 samples.

Results

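Glycogen metabolism was followed through 9 genes: GYS1, GBE1, GYG1, UGP2 and PGM1 of the synthesis route, the phosphorylases PYGL and PYGB, and PPP1R3B and PPP1R3C, which bring protein phosphatase 1 to glycogen. They were taken by gene symbol from the 23106 symbols in the count data, and each of the 9 was present. All 9 also passed the filter on low counts, as did 11735 genes in all. The rule used the symbol alone, though the set was proposed with earlier results of these data known.

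RNA was sequenced from RCC4+VHL cells, a human clear cell renal carcinoma line that lacks a working VHL gene of its own and into which VHL was returned by stable transfection, so that HIF, the hypoxia-inducible transcription factor, again depends on oxygen. Every group was this 1 transfected line, which was kept under G418 selection and was moved before treatment to medium without phenol red and with charcoal-treated serum. The 4 groups of 6 replicates differed only in oxygen and in ligand. Normoxia + DMSO was kept at 21% oxygen with 0.1% DMSO, normoxia + ITE at 21% oxygen with 100 nM ITE, hypoxia + DMSO at 0.5% oxygen with 0.1% DMSO, and hypoxia + ITE at 0.5% oxygen with 100 nM ITE, each for 6 h. ITE is an indole ligand of the aryl hydrocarbon receptor (AHR), a transcription factor that shares its partner subunit, HIF-1β/ARNT, with HIF. The study asked how the 2 pathways act on each other, and the comparisons were hypoxia against normoxia with DMSO and with ITE, ITE against DMSO at each oxygen level, and the interaction, which is the hypoxia effect with ITE minus that with DMSO.

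Glycogen is the branched glucose store of the cell. Glucose 6-phosphate is turned into glucose 1-phosphate by PGM1 and into UDP-glucose by UGP2, GYG1 (glycogenin) primes the chain, GYS1 (muscle-type glycogen synthase) lengthens it and GBE1 adds the branches. Phosphorylases PYGL and PYGB release glucose 1-phosphate again, and the targeting subunits bring a phosphatase that activates the synthase and restrains the phosphorylases. Clear cell renal carcinoma is named for cytoplasm that is rich in glycogen and lipid. Glycogen, protein and enzyme activity were not measured here, and in bulk RNA fewer cells expressing a gene and less RNA per cell cannot be told apart.

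HIF binds at the letters ACGTG or GCGTG, and AHR at GCGTG. Proximal promoters of the members were therefore searched for both, on both strands, in the 250 bases before the RefSeq start site (build GRCh38.p14). The table held entries for 8 of the 9 members, and not for PPP1R3B. Of 35116 promoters of that length in the table, 18.5% held ACGTG and 32.2% GCGTG. The stretches below are from the members with the largest response to hypoxia (PPP1R3C and GBE1), from a member with matches and no detected response (GYG1), from GYS1, whose call depended on the test and on the libraries included, and from STBD1, the only other glycogen pathway gene that passed the test. Each runs 5′ to 3′ in the direction of its gene, with the matches in capitals. CACGT or CACGC is a match on the opposite strand, and CACGTG holds overlapping matches on both strands.

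PPP1R3C, chr10:91633091-91633250, minus strand: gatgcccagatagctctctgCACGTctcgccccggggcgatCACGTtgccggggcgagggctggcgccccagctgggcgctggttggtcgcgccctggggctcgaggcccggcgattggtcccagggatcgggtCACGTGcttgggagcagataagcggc
GBE1, chr3:81761733-81761821, minus strand: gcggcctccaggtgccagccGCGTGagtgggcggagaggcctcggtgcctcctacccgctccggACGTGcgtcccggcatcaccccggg
GYG1, chr3:148991466-148991522, plus strand: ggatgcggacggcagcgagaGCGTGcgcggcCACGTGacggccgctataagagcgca
GYS1, chr19:48993370-48993437, minus strand: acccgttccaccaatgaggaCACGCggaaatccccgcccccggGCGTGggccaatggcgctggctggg
STBD1, chr4:76306691-76306732, plus strand: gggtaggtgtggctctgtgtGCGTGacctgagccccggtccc

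PPP1R3C held 4 matches to ACGTG, at bases -159, -138, -45 and -44 from its start, and 0 to GCGTG. GBE1 held ACGTG at base -112 and GCGTG at base -156. GYG1 held 2 overlapping matches to ACGTG and 1 to GCGTG within 54 bases of its start. GYS1 held 2 matches to GCGTG. STBD1 held 1 match to GCGTG, at base -22. PGM1 had 3 entries, and of these 1 held matches (1 ACGTG and 2 GCGTG). Members without a detected response held matches too: UGP2 had both motifs and PYGB 2 matches to GCGTG, while PYGL had 0 of either. Of the 11 entries of the 8 members, 5 held ACGTG and 7 held GCGTG. These matches describe letters in a window and not binding, which was not measured in these RNA data. The study also mapped binding of HIF and AHR subunits to DNA in RCC4+VHL cells by ChIP-seq, and that part was not used here.

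Sequencing depth spanned 770094 to 93851342 counts (median 7981993), so that 3 counts were worth 0.032 CPM in the deepest library and 3.90 CPM in the shallowest. CPM expresses a count relative to the total of its library, and the levels below were further scaled by the TMM factors of edgeR. Such limits cover counting error only. In hypoxia + DMSO replicate 2, the shallowest library, GYG1 had 36 counts and PPP1R3C 10. The labels were checked on HIF targets and AHR targets. NDRG1 rose by 3.25 ± 0.15 (log2, SE) in hypoxia with DMSO and by 2.96 ± 0.15 with ITE, and PFKFB4 by 3.41 ± 0.19 and 3.61 ± 0.20. CYP1B1 rose with ITE by 2.51 ± 0.20 in normoxia and 2.35 ± 0.21 in hypoxia, while TIPARP rose by 1.35 ± 0.17 in normoxia and its 0.67 ± 0.18 in hypoxia did not pass the test (edgeR quasi-likelihood test, adjusted p = 0.49). The HIF target CA9 was at 0 in 23 of 24 libraries. The 8 listed markers of renal epithelial carcinoma were present in every library, with a summed level of 3551 to 4133 CPM in normoxia and 4114 to 7421 CPM in hypoxia. Of 7 listed markers of other cell types, PTPRC, CD3E, PECAM1 and ALB were at 0 in at least 22 libraries. VWF was at 0 in 9 libraries (median 0.13 CPM) and COL1A1 in 1 (median 1.95, highest 27.1 CPM). CD68 was at 0 in 0 libraries, with a range of 5.50 to 31.4 CPM and a median of 10.9. The summed level of the 7 ran from 10.8 to 43.0 CPM in normoxia and from 5.50 to 32.8 CPM in hypoxia.

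A few hypoxia libraries stood apart from their groups. The median absolute deviation of a gene from its group was 0.68 (log2) in hypoxia + ITE replicate 6, 0.36 in hypoxia + DMSO replicate 1 and 0.27 in hypoxia + ITE replicate 3, against 0.071 to 0.157 in the 12 normoxia libraries. Hypoxia + DMSO replicate 1 and hypoxia + ITE replicate 3 deviated alike across genes, with a correlation of 0.49. Hypoxia + ITE replicate 6 also held the highest KRT8, KRT18 and KRT19 of all libraries, at 1985, 1568 and 828 CPM. The shallow hypoxia + DMSO replicate 2 (0.30) and hypoxia + ITE replicate 1 (0.25) deviated too. Results are therefore also given without replicate 1 of hypoxia + DMSO and replicates 3 and 6 of hypoxia + ITE, called the reduced set of libraries, which was defined once these deviations were known. The size of the deviation alone did not define this set: hypoxia + DMSO replicate 2 (0.30) was kept and hypoxia + ITE replicate 3 (0.27) left out.

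Per kilobase of exon, the levels of the members in normoxia + DMSO spanned from 79.2 ± 6.4 CPM (SD, n = 6) for PYGB, the brain-type phosphorylase, to 1.36 ± 0.57 for PPP1R3C. Between them lay PGM1 at 30.0 ± 1.9, PYGL, the liver-type phosphorylase, at 17.9 ± 1.4, PPP1R3B at 13.8 ± 1.3 and UGP2 at 12.8 ± 1.6 CPM per kilobase. GBE1 followed at 9.95 ± 0.92, GYS1 at 8.66 ± 0.77 and GYG1 at 7.55 ± 0.65 CPM per kilobase. Intervals of 1 SD overlapped between PPP1R3B and UGP2, between GBE1 and GYS1, and between GYS1 and GYG1. In hypoxia + DMSO, GBE1 stood at rank 4 with 18.8 ± 3.2 CPM per kilobase, and PPP1R3C was still the lowest at 5.64 ± 0.83. There the 1 SD interval of GBE1 overlapped those of PYGL (22.5 ± 3.0) and PPP1R3B (16.2 ± 3.7). In hypoxia + ITE, GBE1 stood at rank 5 with 15.9 ± 1.8 CPM per kilobase. The paralogues of other tissues were near or below detection. GYS2, the liver-type synthase, gave 16 counts over all 24 libraries, and GYG2 gave 0. PYGM, the muscle-type phosphorylase, gave 68 counts, of which 36 were in normoxia + DMSO replicate 4.

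Hypoxia raised 3 of the 9 members with DMSO and lowered 0: PPP1R3C 4.11-fold, GBE1 1.90-fold and PGM1 1.46-fold. Of all genes tested, 1.16% were higher and 0.136% lower in this comparison at an adjusted p-value under 0.05. The same 3 members, and 0 in the other direction, passed with ITE present, where 1.89% of all genes were higher and 0.46% lower. For these 3 members, all 6 hypoxia libraries lay above all 6 normoxia libraries both with DMSO and with ITE, which held for 1.8% and 1.21% of all genes. The other 6 members overlapped between hypoxia and normoxia in each setting. The median log2 fold change of the members was 0.32 with DMSO and 0.26 with ITE, beside -0.0033 and 0.02 over all genes tested. At an unadjusted p-value under 0.05, 5 members with DMSO and 4 with ITE were higher in hypoxia, while 9.47% and 20.1% of all genes passed that level in either direction.

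**Figure D1:**
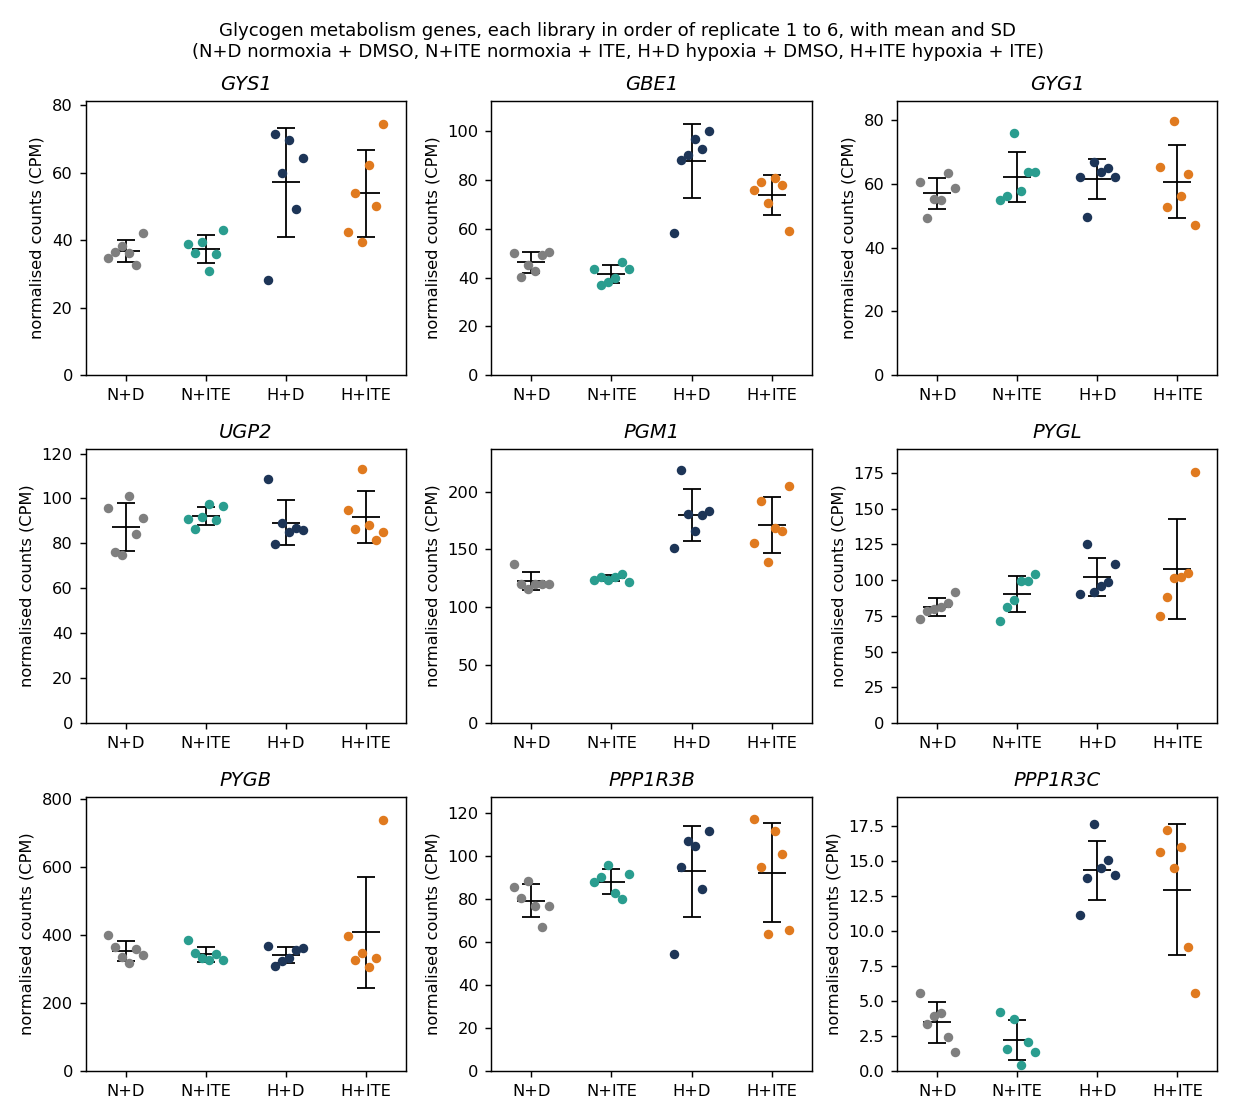
Normalised counts (CPM, vertical axis from 0) of the 9 genes in every library, in the 4 groups along the horizontal axis, with points in order of replicate 1 to 6 and black bars for the mean and SD (n = 6). GBE1, PGM1 and PPP1R3C are the 3 panels in which, with the same ligand, each hypoxia library lies above each normoxia library, and 1 low library pulls GYS1 down to 28.2 CPM in hypoxia + DMSO.

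PPP1R3C (chr10:93388199-93392828, with gene positions on GRCh37 throughout) encodes the targeting subunit also called protein targeting to glycogen. Its level in normoxia + DMSO was 1.38 CPM in the lowest library, 3.65 at the median and 5.58 in the highest, and in hypoxia + DMSO 11.1, 14.2 and 17.6 CPM. With ITE it ran from 0.41 through 1.80 to 4.19 CPM in normoxia and from 5.55 through 15.0 to 17.2 CPM in hypoxia. Hypoxia and normoxia did not overlap with DMSO or with ITE, and the lowest hypoxia value, 5.55 CPM, was in hypoxia + ITE replicate 6. The increase on the log2 scale was 2.04 ± 0.33 (SE, edgeR quasi-likelihood test, adjusted p = 2.1e-04) with DMSO and 2.56 ± 0.35 (adjusted p = 1.8e-05) with ITE. Expression was low, so that a library held between 3 and 1437 counts of the gene, and normoxia + ITE replicate 4 held the 3.

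PPP1R3B (chr8:8993765-9009084), the targeting subunit best known from liver, was measured beside it. It ran from 66.9 through 78.6 to 88.5 CPM in normoxia + DMSO and from 54.4 through 99.8 to 112 CPM in hypoxia + DMSO. With ITE its range was 80.2 to 96.0 CPM in normoxia and 63.8 to 117 CPM in hypoxia. The groups overlapped, and the lowest 3 hypoxia libraries were those that stood apart (54.4, 63.8 and 65.4 CPM). The log2 difference was 0.23 ± 0.15 (adjusted p = 0.69) with DMSO and 0.06 ± 0.15 (adjusted p = 0.86) with ITE. With the reduced set of libraries the first was 0.34 and passed (edgeR, adjusted p = 0.019), and the second was 0.25 and did not (adjusted p = 0.165).

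GBE1 (chr3:81538854-81810796), the branching enzyme, showed the largest increase of the synthesis route. It ran from 40.3 through 47.2 to 50.3 CPM in normoxia + DMSO and from 58.2 through 91.3 to 100.2 CPM in hypoxia + DMSO. With ITE the values were 37.1, 41.7 and 46.2 CPM in normoxia and 58.9, 76.8 and 80.9 CPM in hypoxia. The lowest library of each hypoxia group was one that stood apart, replicate 1 with DMSO and replicate 6 with ITE, and both were still above all normoxia libraries. The increase was 0.93 ± 0.12 (log2, SE, edgeR adjusted p = 7.0e-06) with DMSO and 0.83 ± 0.12 (adjusted p = 4.1e-05) with ITE.

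PGM1 (chr1:64059082-64125916), the phosphoglucomutase that works in both directions between glucose 6-phosphate and glucose 1-phosphate, was the second most abundant member per kilobase. Its level was between 116 and 138 CPM in normoxia + DMSO, with a median of 120.4, and between 151 and 218 CPM in hypoxia + DMSO, with a median of 180. With ITE it was between 122 and 129 CPM in normoxia and between 139 and 205 CPM in hypoxia. The gap was narrow: the lowest hypoxia + DMSO library stood at 151 CPM against 138 in the highest normoxia + DMSO library. PGM1 rose by 0.55 ± 0.10 (log2, SE, edgeR adjusted p = 0.0015) with DMSO and by 0.45 ± 0.10 (adjusted p = 0.011) with ITE. In a fit of the compared groups alone, the latter no longer passed (adjusted p = 0.12). PGM1 shares 197 exon bases with ITGB3BP on the opposite strand, and whether the counting used strand is not given in the sources used here.

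GYS1 (chr19:49471387-49496567), the synthase itself, was higher by 0.61 ± 0.17 (log2, SE) in hypoxia with DMSO and by 0.53 ± 0.17 with ITE, and neither difference passed the test (edgeR, adjusted p = 0.074 and 0.083). Its level was 32.5 to 42.1 CPM in normoxia + DMSO with a median of 36.3, and 28.2 to 71.5 CPM in hypoxia + DMSO with a median of 62.0. The lowest of these, 28.2 CPM in hypoxia + DMSO replicate 1, was below all 6 normoxia + DMSO libraries, and the other 5, from 49.3 CPM upwards, were above them. With ITE the range was 30.8 to 43.0 CPM in normoxia and 39.5 to 74.4 CPM in hypoxia, and the groups overlapped at replicates 1 (42.3 CPM) and 3 (39.5 CPM) of hypoxia + ITE. Without hypoxia + DMSO replicate 1, the difference was 0.75 (adjusted p = 0.0018) with DMSO and 0.53 (adjusted p = 0.026) with ITE. Without hypoxia + ITE replicate 6, it was 0.60 (adjusted p = 0.025) with DMSO. With the reduced set of libraries it was 0.72 (edgeR, adjusted p = 1.9e-05) with DMSO and 0.52 (adjusted p = 0.0040) with ITE. DESeq2 on all libraries also called it, at 0.62 (adjusted p = 0.026) and 0.55 (adjusted p = 0.040), as did limma-voom with sample quality weights. GYS1 stayed uncalled in both comparisons with RLE size factors, no filter, the replicate block, the compared groups alone, and without the 2 shallowest libraries. Leaving out any other single library did not bring a call either.

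GYG1 and UGP2, which both act before the synthase in the route, showed no detected change. GYG1 (chr3:148709195-148749562) was at 49.2 to 63.4 CPM in normoxia + DMSO and 49.5 to 66.9 CPM in hypoxia + DMSO, and at 54.8 to 75.9 and 47.1 to 79.5 CPM with ITE. Its log2 difference was 0.13 with DMSO, with a 95% interval from -0.12 to 0.37, and -0.03 with ITE, from -0.28 to 0.21. GYG1 shares 1649 exon bases with HLTF on the opposite strand, so its counts are less certain for the reason given for PGM1. UGP2 (chr2:64068086-64118696) was at 74.7 to 101 CPM in normoxia + DMSO and 79.7 to 109 CPM in hypoxia + DMSO, and at 86.2 to 97.6 and 81.5 to 113 CPM with ITE. Its log2 difference was 0.04, with an interval from -0.18 to 0.26, with DMSO and -0.01, from -0.22 to 0.21, with ITE. Both intervals of UGP2 lay below the increases fitted for GBE1.

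The phosphorylases did not pass the test in hypoxia. PYGB (chr20:25228721-25278648) ranged from 317 to 400 CPM in normoxia + DMSO and from 308 to 367 CPM in hypoxia + DMSO, with medians of 350.4 and 344 CPM. With ITE its medians were 338 and 339 CPM, while hypoxia + ITE replicate 6 stood at 737 CPM against 397 in the next library. The log2 difference was -0.05 ± 0.15 (SE) with DMSO and 0.24 ± 0.15 with ITE (edgeR, adjusted p = 0.96 and 0.36), and the latter was -0.03 with the reduced set of libraries. PYGL (chr14:51324609-51411201) had medians of 80.7 CPM in normoxia + DMSO and 97.1 in hypoxia + DMSO, in ranges of 72.7 to 91.6 and 90.6 to 125 CPM that met at 1 library of each group. With ITE the ranges were 71.4 to 104 CPM in normoxia and 75.0 to 176 CPM in hypoxia, where replicate 6 was again the highest. The log2 difference of PYGL was 0.32 ± 0.15 (adjusted p = 0.50) with DMSO and 0.26 ± 0.15 (adjusted p = 0.33) with ITE. With the reduced set of libraries it was 0.32 with DMSO (edgeR, adjusted p = 0.071) and 0.057 with ITE (adjusted p = 0.92).

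**Figure D2:**
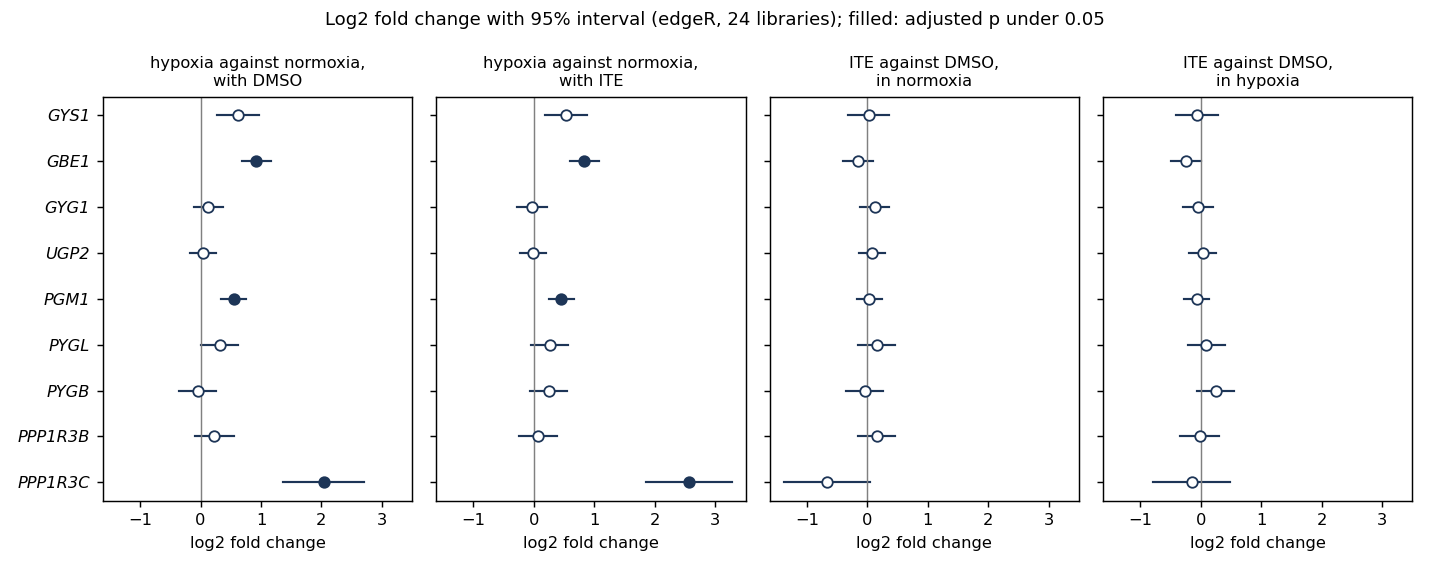
Log2 fold change (horizontal axis) of each gene in the 4 comparisons, with the 95% interval as a line and a filled point where the adjusted p-value was under 0.05 (edgeR, 24 libraries). PPP1R3C stands furthest to the right in both hypoxia panels, at 2.04 and 2.56, and the 2 ITE panels hold open points only.

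A change with ITE was detected in 0 of the 9 members at either oxygen level by edgeR, DESeq2 or limma-voom with sample quality weights. Of all genes tested, 0.0511% passed by edgeR for ITE in normoxia and 0.0597% for ITE in hypoxia, which is 6 and 7 genes. In this fit all 4 groups share their estimate of spread, with the hypoxia libraries that stood apart among them. The compared groups alone gave 0 members at either oxygen level, with 30 genes in normoxia and 1 in hypoxia. At an unadjusted p-value under 0.05, 0 members passed in normoxia and 1, GBE1, in hypoxia, beside 1.46% and 9.56% of all genes, so that 1 of 9 is near the share of all genes. GBE1 was lower with ITE in hypoxia by 0.25 on the log2 scale as fitted (-0.25 ± 0.12, SE, 95% interval -0.49 to -0.0013, adjusted p = 0.52). Across the hypoxia groups its medians were 91.3 CPM with DMSO and 76.8 with ITE, and the ranges overlapped through hypoxia + DMSO replicate 1, at 58.2 CPM. Without the libraries that stood apart, of which that replicate is one, the ranges were 87.9 to 100.2 CPM with DMSO and 75.8 to 80.9 CPM with ITE. How many of all genes separate in this set was not counted, and the difference of -0.25 did not pass either (edgeR, adjusted p = 0.9997). In normoxia GBE1 was at -0.16 ± 0.12 (adjusted p = 0.9998).

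PPP1R3C had the widest intervals for ITE, at -0.67 ± 0.35 (95% interval -1.38 to 0.04) in normoxia and -0.15 ± 0.31 (-0.80 to 0.49) in hypoxia. A fall of over 1 on the log2 scale therefore lay within the interval in normoxia. PGM1 was bounded most closely, at 0.03 (-0.17 to 0.24) in normoxia and -0.06 (-0.27 to 0.14) in hypoxia. The fitted ITE difference of GYS1 was 0.02 (-0.32 to 0.36) in normoxia and -0.06 (-0.41 to 0.29) in hypoxia. In normoxia the remaining members lay between -0.04 for PYGB and 0.15 for PPP1R3B and PYGL. In hypoxia they lay between -0.04 for GYG1 and 0.25 for PYGB, which rested on hypoxia + ITE replicate 6 and was -0.0012 without the libraries that stood apart.

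The hypoxia effect was not detectably different with ITE and with DMSO. The interaction passed for 0 of the 9 members by edgeR, DESeq2 or limma-voom, and for 0 of 11735 genes (0%) by each, with 0 members and 374 genes at an unadjusted p-value under 0.05. For the 3 members raised by hypoxia it was 0.52 for PPP1R3C (95% interval -0.44 to 1.48), -0.09 for GBE1 (-0.44 to 0.25) and -0.10 for PGM1 (-0.39 to 0.20). For GYS1 it was -0.08 (-0.57 to 0.41). The interval of PPP1R3C was the widest of the 9.

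The glycogen pathway beyond these members was represented by 36 listed genes, of which 27 passed the filter. In hypoxia 1 of the 27 was called higher and 0 lower, both with DMSO and with ITE. Of all genes tested, 1.16% and 1.89% were higher and 0.136% and 0.46% lower. For ITE in normoxia, ITE in hypoxia and the interaction, 0 of the 27 were called, beside 0.0511%, 0.0597% and 0% of all genes. The median log2 fold change of the 27 was 0.03 with DMSO and 0.01 with ITE in hypoxia against normoxia. The gene called was STBD1 (chr4:77227886-77232283), a protein with a starch-binding domain that tethers glycogen to membranes. Its level was 21.3 to 29.4 CPM in normoxia + DMSO and 42.2 to 64.6 CPM in hypoxia + DMSO, and 22.4 to 30.0 and 41.3 to 59.1 CPM with ITE. The groups did not overlap, and STBD1 rose by 1.11 ± 0.12 (log2, SE, edgeR adjusted p = 4.3e-07) and 0.95 ± 0.12 (adjusted p = 8.1e-06).

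By group, 0 of 3 tested paralogues, 0 of 4 subunits of phosphorylase kinase, 0 of 6 phosphatase subunits, 0 of 2 synthase kinases and 0 of 2 genes of laforin and malin passed in hypoxia. The same held for 0 of 2 genes of glucose 6-phosphate release and 0 of 5 other users and makers of UDP-glucose. Beside the shares of all genes given above, 0 calls in groups this small do not set them apart. The nearest to the threshold was PPP1R3E, a further targeting subunit named after its values were seen, at 1.13 ± 0.31 (log2, SE, edgeR adjusted p = 0.051) in hypoxia with ITE and -0.06 ± 0.31 with DMSO. Its highest value, 13.5 CPM, was in hypoxia + ITE replicate 6, and the other 5 libraries of that group were between 1.49 and 5.53 CPM. PPP1R3A, the muscle targeting subunit, gave 0 counts in 24 libraries, and the glucose 6-phosphatase gene G6PC gave 1.

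**Figure D3:**
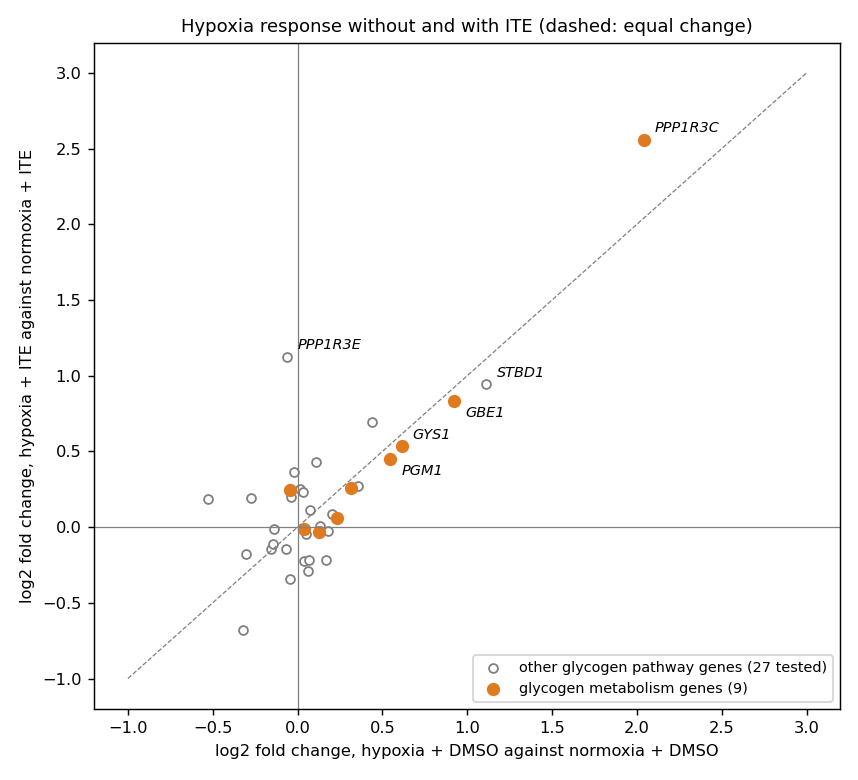
Log2 fold change in hypoxia with DMSO (horizontal axis) against that with ITE (vertical axis) for the 9 glycogen metabolism genes (filled) and 27 other tested pathway genes (open), with a dashed line for equal change. PPP1R3C, STBD1 and GBE1 lie furthest from the origin along the line, and PPP1R3E lies above it at -0.06 and 1.13.

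The 3 members raised by hypoxia were placed beside the genes whose levels most resembled theirs over the 24 libraries, by Pearson correlation of log2 CPM across all tested genes. All points share the groups and library depths, so these are descriptions. GBE1 was closest to PFKFB3 (r = 0.97), which makes an activator of phosphofructokinase, then to the hexokinase HK2 (0.95) and the transcription factor BHLHE40 (0.95). PGM1 was closest to ANKZF1 (0.92), the lipid droplet gene PLIN2 (0.92) and CTDSP1 (0.92). PPP1R3C was closest to ZHX2 (0.89), DNAH11 (0.89) and SPRY1 (0.88). Among themselves the members correlated at 0.84 (GBE1 and PGM1), 0.85 (GBE1 and PPP1R3C) and 0.73 (PGM1 and PPP1R3C) over 24 libraries. Over the 12 hypoxia libraries alone these values were 0.25, 0.62 and -0.21.

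**Figure D4:**
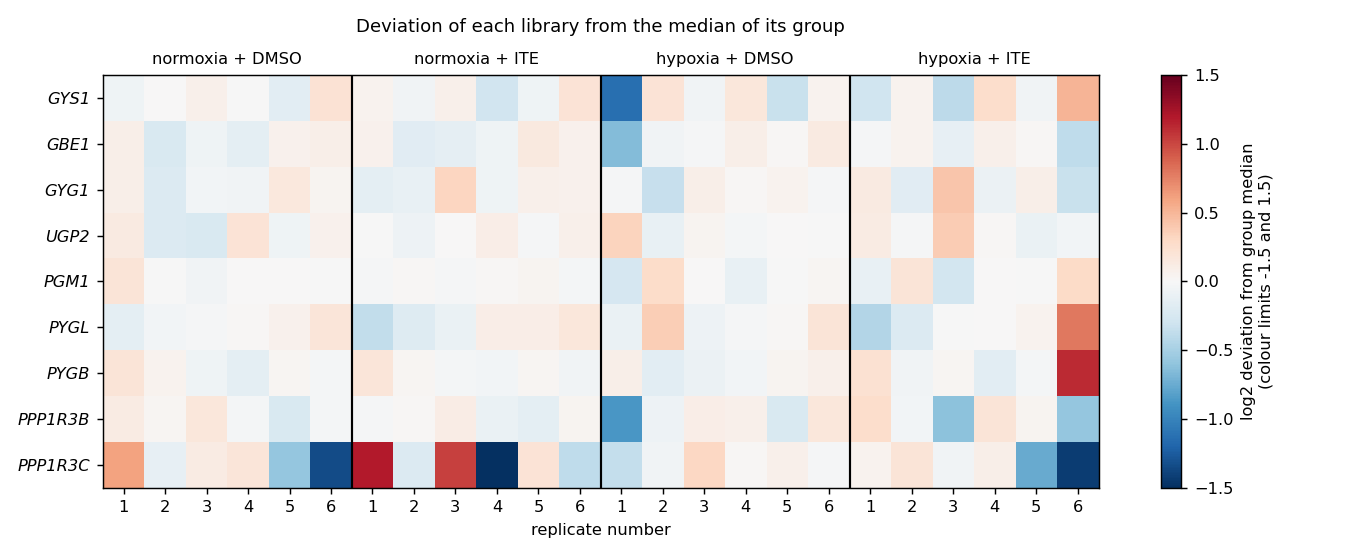
Log2 deviation of each library (columns, replicates 1 to 6 in each group) from the median of its group for each of the 9 genes (rows), with colour limits of -1.5 and 1.5. Hypoxia + DMSO replicate 1 is low for GYS1, GBE1 and PPP1R3B, hypoxia + ITE replicate 6 is high for PYGB and PYGL and low for PPP1R3C, and PPP1R3C varies most among normoxia libraries, where its level was 0.41 to 5.58 CPM.

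Over the 9 members, the median absolute deviation from the group median was 0.51 (log2) in hypoxia + ITE replicate 6, 0.33 in hypoxia + DMSO replicate 1 and 0.27 in hypoxia + ITE replicate 3, and between 0.046 and 0.16 in the other 21 libraries. The directions differed between genes within a library. In hypoxia + DMSO replicate 1, GYS1, GBE1, PGM1, PYGL, PPP1R3B and PPP1R3C were the lowest of their group. In that library UGP2, at 109 CPM, and PYGB, at 367 CPM, were the highest. In hypoxia + ITE replicate 3, GYS1, PGM1 and PPP1R3B were the lowest of their group while GYG1 and UGP2 were the highest. The part of these libraries in the differences of GYS1, PPP1R3B, PYGB and PYGL is given by the values above, and its cause was not tested.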

How the data were processed

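RNA of 24 libraries (polyA-selected, NEBNext Ultra II Directional kit, paired ends) was sequenced by the authors, who trimmed adaptors (Trim Galore 0.3.3), aligned to GRCh37 (HISAT2), removed non-unique fragments (Picard 2.0.1) and counted fragments per gene (HTSeq 0.5.4p3, versions from the submitters' processing notes). The authors deposited raw counts per gene symbol and library, not normalised. Whether counting used strand is not given in the sources used here. The study's methods describe 6 independent replicates.

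Groups and replicate numbers were taken from the labels. In R 4.3.3, edgeR 4.0.16 was run on all 24 libraries with TMM normalisation, filterByExpr (minimum count 10) and a quasi-likelihood fit with 1 mean per group. Two-sided p-values were adjusted by Benjamini-Hochberg over 11735 genes with a threshold of 0.05. Standard errors are the log2 fold change divided by the square root of F. CPM were normalised by TMM, and levels between genes were compared per kilobase of exon (GENCODE 44 lifted to GRCh37, which matched 20098 of 23106 symbols). Correlations used log2 CPM with a prior count of 2. The edgeR pipeline was tested on simulated counts for hypoxia with DMSO, hypoxia with ITE and the interaction. No simulated library was made to stand apart, and DESeq2 and limma-voom were not tested in this way. Alternatives set in advance were DESeq2 1.42.0, RLE size factors, no filter, the replicate block, the compared groups alone, limma-voom 3.58.1 with sample quality weights, and leaving out each library in turn. Leaving out the 3 libraries standing apart, or the 2 shallowest, was chosen after the data were seen.

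The members and the lists were chosen with earlier results of these data known. Genes named were all 9 members, other listed pathway genes past the threshold in any comparison, GYS2 and PYGM, the 3 genes most correlated with each member called in hypoxia, and 5 label checks (NDRG1, CA9, PFKFB4, CYP1B1, TIPARP). A further gene of this rule is not reported here. The labels do not say that a replicate number marks a shared day or batch, so replicate numbers were not taken as pairs in the main fit. Same-numbered libraries deviated together in some pairs and not in others, and the replicate block was fitted as an alternative.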

Additional observations from a re-analysis of the deposited data

Results flagged for a closer look

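In 7 of 36 combinations of member and group, 1 library lay further from the other 5 than Dixon's test allows at the 95% level. For independent normal values chance gives about 1.8. The genes share the same libraries, and depth differs between these, so that figure is only a guide. Hypoxia + ITE replicate 6 was the highest of its group for PYGB, at 737 CPM with the next library at 397, and for PYGL, at 176 CPM with the next at 105. Hypoxia + DMSO replicate 1 was the lowest for GBE1, at 58.2 CPM with the next at 87.9, and the highest for UGP2, at 109 CPM with the next at 88.9. Hypoxia + DMSO replicate 2, the shallowest library, was the lowest for GYG1 at 49.5 CPM with the next at 62.0. The other two were in normoxia. Normoxia + DMSO replicate 1 was the highest for PGM1 at 138 CPM, with the next at 121, and normoxia + ITE replicate 1 for PYGB at 384 CPM, with the next at 346. Hypoxia + ITE replicate 6 and hypoxia + DMSO replicate 1 also stood apart over all genes, and the cause of these deviations was not tested.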

How the results depend on the processing

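The increases of GBE1, PGM1 and PPP1R3C in hypoxia kept their direction and their side of the threshold in 32 of 32 alternatives each, with DMSO and with ITE, except PGM1 with ITE in 1 of 32 (the compared groups alone, 0.45, adjusted p = 0.12). With DMSO the number of members called was 6 with limma-voom and sample quality weights, which added GYS1, PYGL and PPP1R3B, and 5 with the 3 libraries standing apart left out, which added GYS1 and PPP1R3B. With 1 library left out at a time it was 3 or 4 in both hypoxia comparisons. The replicate block left 3 members called with DMSO, 3 with ITE and 0 elsewhere, and it changed no call of a member. Same-numbered libraries were correlated over 0.1 in 4 and 3 of 6 pairs for hypoxia with DMSO and with ITE, and in 5 and 2 of 6 for ITE in normoxia and in hypoxia, and 4, 3, 5 and 1 of 6 correlated best with their own number. Over all genes, the calls in hypoxia with DMSO and with ITE moved from 152 and 276 to 840 and 605 with limma-voom, 249 and 672 with DESeq2, 233 and 85 with the compared groups alone, 452 and 291 without the 3 libraries, and 167 and 475 without the 2 shallowest. They lay between 112 and 303 and between 159 and 811 with 1 library left out. For ITE the calls moved from 6 in normoxia to 112 with limma-voom, 30 with the compared groups alone, 28 without the 3 libraries, 14 with DESeq2 and 13 with the replicate block, and from 7 in hypoxia to 1 with the compared groups alone and 4 without the 2 shallowest. With 1 library left out they lay between 4 and 13 and between 4 and 8. The cause of these shifts was not tested.

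Values that changed sign passed the test in neither fit, and the largest of them as first fitted was 0.25 (PYGB, ITE in hypoxia). Without the 3 libraries, the hypoxia effect with DMSO was -0.025 for UGP2 and with ITE -0.027 for PYGB, and the ITE effect in hypoxia was -0.11 for PYGL, -0.0012 for PYGB and 0.060 for PPP1R3B. With limma-voom, the hypoxia effect with ITE was -0.022 for PYGB, and the ITE effect in hypoxia was -0.0016 for UGP2, -0.016 for PYGL, -0.025 for PYGB, 0.0091 for PPP1R3B and 0.055 for STBD1, which was 0.019 with DESeq2 and 0.00026 with RLE size factors. Without the 2 shallowest libraries, the hypoxia effect with ITE was -0.0080 for PPP1R3B, the ITE effect in hypoxia 0.040 for GYS1, -0.00084 for UGP2, 0.014 for PGM1 and 0.054 for STBD1, and the interaction 0.017 for GYS1 and 0.069 for PYGL. With 1 library left out, the hypoxia effect with DMSO ran from -0.023 to 0.087 for UGP2, and with ITE from -0.13 to 0.030 for GYG1, -0.077 to 0.023 for UGP2, -0.015 to 0.32 for PYGB and -0.0077 to 0.16 for PPP1R3B. The ITE effect ran from -0.023 to 0.072 for GYS1 in normoxia, and in hypoxia from -0.20 to 0.028 for GYS1, -0.13 to 0.011 for GYG1, -0.034 to 0.096 for UGP2, -0.080 to 0.17 for PYGL, -0.0090 to 0.32 for PYGB, -0.13 to 0.077 for PPP1R3B and -0.056 to 0.054 for STBD1. The interaction ran from -0.22 to 0.0099 for GYS1, -0.11 to 0.013 for UGP2 and -0.23 to 0.018 for PYGL. Depth limits PPP1R3C most, with 3 counts in 1 library.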

Other observations

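Ratios of counts within a library do not depend on how the libraries are scaled. For each PPP1R3B count, PPP1R3C gave a median of 0.043 counts in normoxia + DMSO, in a range of 0.018 to 0.065, and 0.155 in hypoxia + DMSO, in a range of 0.125 to 0.204. With ITE the medians were 0.021 (0.0049 to 0.048) in normoxia and 0.138 (0.085 to 0.227) in hypoxia. With the same ligand, this ratio did not overlap between hypoxia and normoxia. It rests on the same PPP1R3C counts as the increase given above, so it is no separate support. How many other gene pairs separate in this way was not counted. The ratio of the branching enzyme to the synthase, GBE1 per GYS1, had medians of 1.19 and 1.08 in normoxia and 1.53 and 1.51 in hypoxia with DMSO and ITE, and its ranges overlapped, reaching down to 0.79 in hypoxia + ITE. PYGL per PYGB had medians of 0.236 and 0.275 in normoxia and 0.285 and 0.281 in hypoxia, in overlapping ranges.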
